A study of Mus musculus with 18 samples.

Results

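Grb2, Txnl4b and Eif5b were 3 of the 76 genes targeted in a pooled CRISPR screen, with 3 single guide RNAs (sgRNAs) each, or 9 of the 252 sgRNAs in the library. They were chosen by the read counts of both cell pools sequenced before any mouse was injected, in which their sgRNAs were scarce relative to the 24 non-targeting sgRNAs. That scarcity is therefore a description here and was not tested. A pool of the cloned plasmids or of freshly transduced cells was not analysed here, so loss of cells during culture and low representation in the cloned library cannot be told apart, and no growth rate was measured. The members are accordingly called scarce targets and not essential genes.

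The screen asked which genes change the survival of tumor cells attacked through anti-hHer2 IgA, with and without the inositol phosphate kinase ITPK1. The cells were sensBa/F3 cells, derived from Ba/F3, a mouse pro-B cell line that depends on interleukin-3 and was cultured with it. ITPK1-KO cells were a pool of 6 sequence-checked clones, whereas ITPK1-WT cells were the parental line, and both were transduced with the same sgRNA library and cultured for 10 days. The 2 pools were stained with CellTrace yellow (ITPK1-KO) or violet (ITPK1-WT), mixed 1:1 and injected intraperitoneally, 20000000 cells per mouse, into hCD89-transgenic mice, which carry the human IgA receptor CD89. The groups were ITPK1-KO and ITPK1-WT cells from 4 IgA-treated mice (mice 5 to 8), the same from 4 vehicle (PBS) mice (mice 1 to 4), and each background's pool before injection (1 library each). Viable cells were recovered by lavage after 16 hours and sorted by dye, so the dye cannot be told apart from the genotype. Treatment was read from the deposited sample legend, because the sample labels give only the mouse and the genotype; no age or further allele of the mice is given in the sources used here. The libraries were sgRNA cassettes amplified from genomic DNA and hold no RNA, so the identity of the cells could not be checked against marker genes.

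In a screen of this kind an sgRNA guides Cas9 to cut its target gene, and the share of reads of that sgRNA stands for the share of cells that carry it. Cells that lose a gene needed for growth or survival become rarer in culture, and their sgRNAs with them. Grb2 encodes an adaptor protein that links activated receptors, the interleukin-3 receptor among them, to the Ras and MAP kinase pathway. Txnl4b encodes a thioredoxin-like protein that, in human cells, takes part in pre-mRNA splicing. Eif5b encodes a GTPase that joins the ribosomal subunits at the start codon. Apart from the members, the library held 0 of 26 listed genes of interleukin-3 growth signalling. It also held 0 of 19 listed splicing and translation initiation genes, so none of the listed genes could be followed.

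The 9 sgRNAs of the members are printed because each target rests on these 3 cassettes alone, and they behaved unequally. Each is given 5′ to 3′, as deposited, without the adjacent PAM, and the capitals mark the 10 bases nearest the PAM, the seed in which Cas9 tolerates mismatches least.
Grb2 sg-1: aaacacttacTTGACGGACA
Grb2 sg-2: aatacttcccGGCTCCGTCG
Grb2 sg-3: cagcaaacagCGGCATGACG
Txnl4b sg-1: actgtgtgtaAACCGGCGTG
Txnl4b sg-2: ccaggcgatcAAAAGCACTG
Txnl4b sg-3: catccagctgCAGACAGACG
Eif5b sg-1: tccgttcctaCCGTAGACAG
Eif5b sg-2: caaagcgaaaCGGAGGATTG
Eif5b sg-3: gaagagtcctGATTCTGATG
The GC content of the 9 members ranged from 40% to 60% with a median of 55%, against a range of 25% to 85% and a median of 50% over all 228 targeting sgRNAs. The genomic cut sites were not located here, because no genome sequence was used.

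The 18 libraries held 317564 to 808586 reads, and between 657000 and 2000000 sorted cells stood behind each recovered library. No member sgRNA had a count of 0 in any library. All 8 vehicle libraries came from 2000000 cells, whereas the IgA libraries came from 955000 to 2000000 ITPK1-KO cells and 657000 to 2000000 ITPK1-WT cells. The sample numbers in the labels fall into 2 series, the first with mice 1 to 5 and the second with mice 6 to 8 and both libraries from before injection. All vehicle mice lie in the first series, so only mouse 5 compares the arms within a series, and change since injection in the vehicle arm cannot be told apart from the series. Each background was transduced once, so p-values measure the spread between mice that received the same pool and not between separate transductions.

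Before injection the members were at or next to the bottom of the gene order in both backgrounds. A level is the ratio of an sgRNA's reads to the non-targeting median in the same library, with 0.5 read added to each, and a gene's level is the geometric mean over its 3 sgRNAs. In ITPK1-KO cells Txnl4b stood at 1.91%, Grb2 at 2.4% and Eif5b at 9.28% of the non-targeting median. In ITPK1-WT cells Txnl4b stood at 3.87%, Grb2 at 4.82% and Eif5b at 7.29%. These levels made them the 3 lowest of 76 genes in ITPK1-WT cells and ranks 2 to 4 in ITPK1-KO cells, where only Ipmk, an inositol phosphate multikinase, was lower at 0.58%. The next genes above them were Dpysl4 (14.2%), Ifnar1 (23.9%) and Bad (28%) in ITPK1-KO cells, and Ipmk (12.6%), Dpysl4 (13.5%) and Ifnar1 (20%) in ITPK1-WT cells. In each background 8 of the 9 sgRNAs were below the lowest non-targeting sgRNA, which stood at 9.92% in ITPK1-KO cells and 10.7% in ITPK1-WT cells. The exception was Eif5b sg-1, at 22.4% in ITPK1-KO cells and 16.9% in ITPK1-WT cells.

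**Figure D1:**
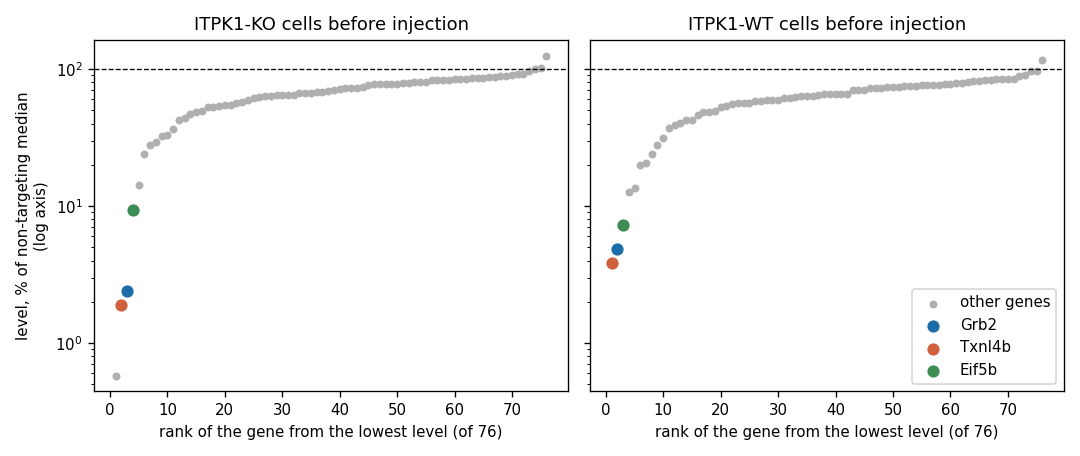
Gene levels before injection, as percent of the non-targeting median on a log axis, against the rank of the gene from the lowest of 76, with 1 library per background (left, ITPK1-KO; right, ITPK1-WT). The dashed line marks 100%. Txnl4b, Grb2 and Eif5b took ranks 2 to 4 in ITPK1-KO cells, above Ipmk at 0.58%, and ranks 1 to 3 in ITPK1-WT cells.

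The 3 sgRNAs of a gene were not equally scarce, and their order was largely the same from library to library. For Grb2, sg-1 was the lowest and sg-3 the highest in all 18 libraries. Before injection they stood at 0.687%, 2.56% and 7.84% for sg-1, sg-2 and sg-3 in ITPK1-KO cells, and at 2.25%, 5.19% and 9.57% in ITPK1-WT cells. For Eif5b the order ran the other way in all 18 libraries, with sg-1 highest, then sg-2 (7.42% in ITPK1-KO cells and 6.57% in ITPK1-WT cells before injection) and sg-3 (4.81% and 3.5% in the same libraries). For Txnl4b, sg-1 was the highest in all 18 libraries, at 3.72% in ITPK1-KO cells and 10.2% in ITPK1-WT cells before injection. Txnl4b sg-2 stood at 0.828% in ITPK1-KO cells and 2.16% in ITPK1-WT cells before injection, and sg-3 at 2.27% and 2.62% in the same libraries. Txnl4b sg-3 lay above sg-2 in every ITPK1-KO library but that of vehicle mouse 3, whereas in ITPK1-WT libraries they changed places. A sum of counts over a gene is therefore carried mostly by sg-3 for Grb2, by sg-1 for Txnl4b and by sg-1 for Eif5b.

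**Figure D2:**
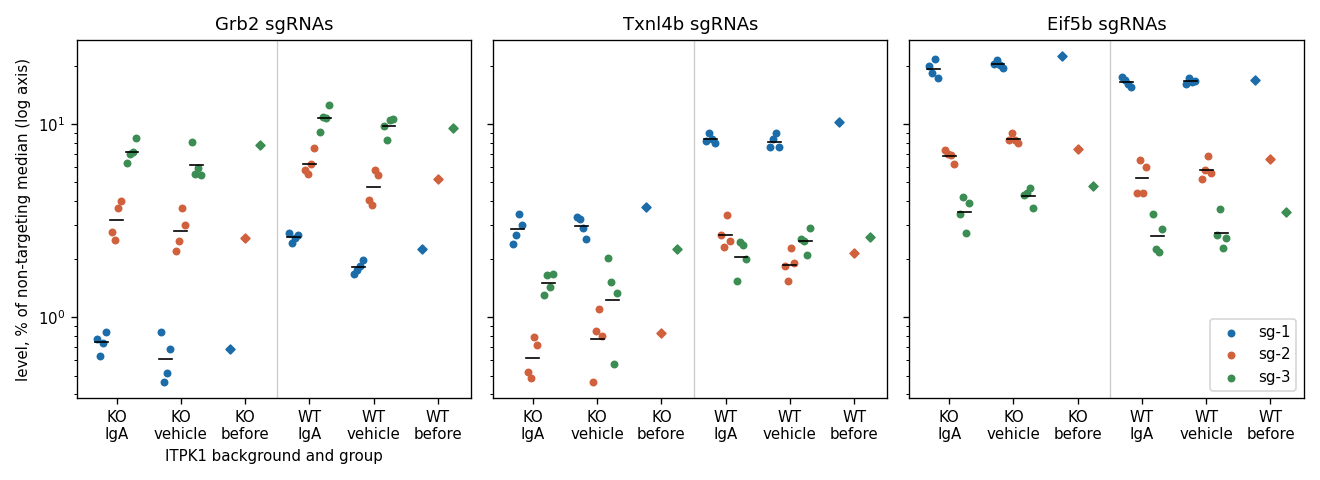
Level of each member sgRNA in every library, as percent of the non-targeting median on a log axis, by ITPK1 background and group (4 IgA mice, 4 vehicle mice and 1 library from before injection in each background). Circles are recovered libraries, diamonds the libraries from before injection, and bars the geometric means over 4 mice. The sgRNAs of Grb2 and Txnl4b lie lower in the ITPK1-KO groups than in the ITPK1-WT groups, and those of Eif5b lie higher.

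In the recovered cells, the sgRNAs of Grb2 and Txnl4b were scarcer when ITPK1 was deleted than when it was intact, and those of Eif5b were more abundant. Grb2 averaged 2.59 ± 0.365% of the non-targeting median in ITPK1-KO cells against 5.6 ± 0.509% in ITPK1-WT cells of IgA mice, and 2.2 ± 0.256% against 4.39 ± 0.528% in the same order in vehicle mice (SD, n = 4 each). Txnl4b averaged 1.39 ± 0.188% in ITPK1-KO cells against 3.6 ± 0.374% in ITPK1-WT cells of IgA mice, and 1.42 ± 0.158% against 3.36 ± 0.161% in vehicle mice. Eif5b averaged 7.75 ± 0.336% in ITPK1-KO cells against 6.13 ± 0.513% in ITPK1-WT cells of IgA mice, and 8.97 ± 0.492% against 6.45 ± 0.478% in vehicle mice. Grb2 and Txnl4b were lower and Eif5b was higher in the ITPK1-KO cells of all 8 mice. This was not particular to the members, as Ipmk and Daxx were also lower, and Itpk1 higher, in all 8.

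All 9 sgRNAs passed edgeR's quasi-likelihood test for a difference between backgrounds over the 16 recovered libraries (Benjamini-Hochberg adjusted p under 0.05 over 252 sgRNAs). Of all sgRNAs 45.2% passed it, 23.8% lower and 21.4% higher in ITPK1-KO cells, so that a call was common in this comparison, and of the members 6 were lower and 3 higher. With libraries scaled to the summed non-targeting sgRNAs, the 60 lower and 54 higher sgRNAs became 76 lower and 32 higher, and each member kept its direction and its call. The members' sizes were Grb2 sg-1, log2 fold change -1.68 (SE 0.164, edgeR adjusted p = 3.69e-17), and sg-2 and sg-3, -0.86 and -0.62. Txnl4b sg-1 differed by -1.51 (SE 0.0892, edgeR adjusted p = 9.85e-33), sg-2 by -1.70 and sg-3 by -0.67. Eif5b sg-1, sg-2 and sg-3 differed by 0.26, 0.43 and 0.51, with edgeR adjusted p-values from 2.66e-06 to 4.52e-05. The median over the 9 members was -0.67, against 0.01 over all sgRNAs.

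On counts summed per gene, the log2 fold change of ITPK1-KO over ITPK1-WT was -0.79 for Grb2 (SE 0.0738, edgeR adjusted p = 6.05e-12), -1.35 for Txnl4b (SE 0.0761, adjusted p = 1.73e-18) and 0.33 for Eif5b (SE 0.0481, adjusted p = 1.99e-07). Of 77 features (76 genes and the summed non-targeting sgRNAs) 57.1% passed. The 22 lower and 22 higher features became 33 lower and 11 higher when scaled to the non-targeting sgRNAs. The summed Grb2 value rested on its least scarce sgRNA: it was -1.05 without sg-3. Txnl4b gave -1.10 without sg-1 and -1.55 without sg-3, and Eif5b gave 0.46 without sg-1, its least scarce sgRNA.

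At the gene level, background differences in the same direction were present in the pools that were injected. The Grb2 level in ITPK1-KO minus ITPK1-WT cells averaged -1.06 ± 0.149 on the log2 scale over the 8 mice, against -1.01 before injection. Txnl4b averaged -1.31 ± 0.194 in the mice, against -1.02 before injection, and Eif5b 0.41 ± 0.113, against 0.35. Single sgRNAs were less even. Txnl4b sg-3 differed by -0.73 ± 0.551 in the mice against -0.20 before injection. Grb2 sg-3 differed by -0.62 ± 0.202 against -0.29, and Eif5b sg-2 by 0.46 ± 0.275 against 0.18. Txnl4b sg-2 differed by -1.71 ± 0.579 against -1.38, and Eif5b sg-3 by 0.52 ± 0.338 against 0.46. The difference was smaller in the mice for Grb2 sg-2 (-0.86 ± 0.179 against -1.02) and Eif5b sg-1 (0.26 ± 0.0996 against 0.41). It was nearly the same for Grb2 sg-1 (-1.69 ± 0.306 against -1.71) and Txnl4b sg-1 (-1.50 ± 0.21 against -1.46). The recovered cells descend from the libraries that served to choose the members, so the direction of the background difference is not independent of them. Clone composition, the single transduction of each background and deletion of ITPK1 cannot be told apart as the source of that difference. In the recovered cells the dye cannot be told apart from them either. Within the first sample series (mice 1 to 5) the means were -1.02 ± 0.173 for Grb2, -1.29 ± 0.215 for Txnl4b and 0.44 ± 0.103 for Eif5b. Within the second (mice 6 to 8) they were -1.11 ± 0.106, -1.36 ± 0.189 and 0.35 ± 0.128 for the same genes. Among the other targets that stood apart, Ipmk differed by -3.02 and Daxx by -1.13 between ITPK1-KO and ITPK1-WT cells on summed counts, and the Itpk1 sgRNAs, whose target the ITPK1-KO cells already lack, were 2.84-fold more abundant in ITPK1-KO cells.

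**Figure D3:**
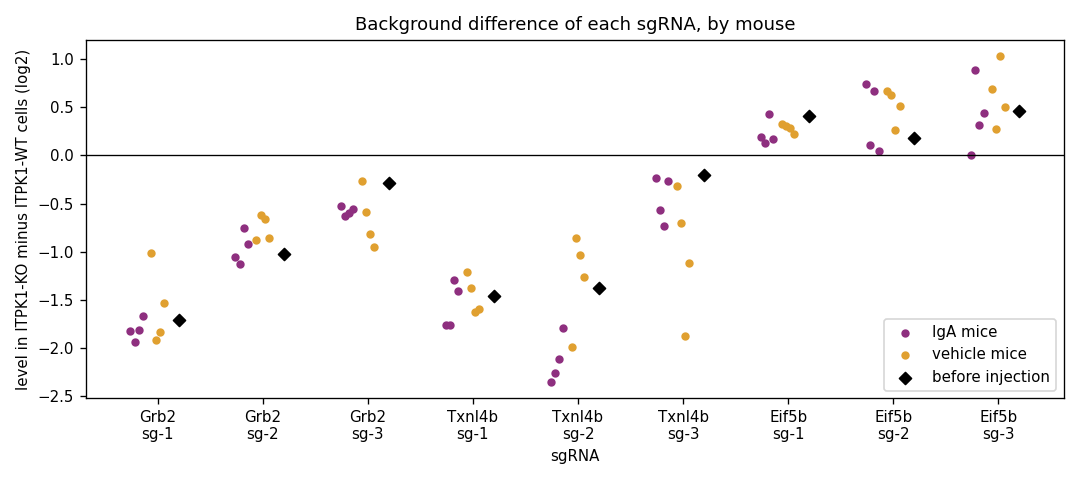
Level in ITPK1-KO minus ITPK1-WT cells (log2) of each member sgRNA, with 1 point per mouse (4 IgA mice, 4 vehicle mice) and a diamond for the pair of libraries from before injection. All 6 sgRNAs of Grb2 and Txnl4b lie below 0 in all 8 mice, and the 3 sgRNAs of Eif5b lie at or above 0, with Eif5b sg-3 at 3.42% in both backgrounds of IgA mouse 5.

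The effect of IgA was compared with vehicle within each background, where an sgRNA against a gene needed for killing would gain reads. In ITPK1-WT cells, 2 Grb2 sgRNAs and 1 Txnl4b sgRNA were higher in IgA than in vehicle mice. Grb2 sg-1 stood at 2.74%, 2.42%, 2.57% and 2.68% of the non-targeting median in IgA mice 5 to 8, against 1.68%, 1.76%, 1.84% and 1.98% in vehicle mice 1 to 4. The arms did not overlap, and the counts behind the values were 67 to 114 reads in IgA mice and 50 to 69 reads in vehicle mice. The log2 fold change was 0.48 (SE 0.155, edgeR adjusted p = 0.0156).

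Grb2 sg-2 stood at 5.78%, 5.49%, 6.25% and 7.52% in the ITPK1-WT cells of IgA mice 5 to 8, against 4.07%, 3.82%, 5.78% and 5.46% in those of vehicle mice 1 to 4. Vehicle mouse 3 lay inside the IgA range, so these arms overlapped. The log2 fold change was 0.35 (SE 0.126, edgeR adjusted p = 0.0323), and the call was lost without mouse 1, 2, 7 or 8 (log2 fold change 0.25 to 0.35) and in DESeq2 (adjusted p = 0.0582). Grb2 sg-3, the most abundant of the 3, stood at 9.06% to 12.5% in IgA mice and 8.24% to 10.6% in vehicle mice, and its log2 fold change of 0.11 did not pass (SE 0.101, edgeR adjusted p = 0.429).

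Txnl4b sg-2 stood at 2.66%, 2.32%, 3.39% and 2.48% in the ITPK1-WT cells of IgA mice 5 to 8, against 1.84%, 1.54%, 2.28% and 1.92% in those of vehicle mice 1 to 4. The arms did not overlap, and the log2 fold change was 0.48 (SE 0.159, edgeR adjusted p = 0.0179). Without mouse 7, the highest of the IgA mice, it was 0.36, and without mouse 2, the lowest of the vehicle mice, 0.39, and neither passed (edgeR adjusted p = 0.131 and 0.104). The other sgRNAs of the gene did not move with it. Txnl4b sg-1 had a log2 fold change of 0.02 and sg-3 of -0.27, in the opposite direction (SE 0.159, edgeR adjusted p = 0.214).

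The 3 Eif5b sgRNAs had log2 fold changes of -0.05, -0.14 and -0.13 in ITPK1-WT cells, none past the threshold. In this comparison 27.8% of all 252 sgRNAs passed, 35 higher and 35 lower, which became 70 higher and 6 lower when scaled to the non-targeting sgRNAs. The members' count of 3 of 9 lies near that share, which pools both directions. All 3 member calls were higher, however, and 35 of all 252 sgRNAs were called higher. Libraries did not overlap between arms for 2 of the 9 members, against 18.7% of all sgRNAs. With the sample series as a covariate, which leaves mouse 5 against the vehicle mice, Grb2 sg-1 had 0.58, Grb2 sg-2 0.27 and Txnl4b sg-2 0.48, and none passed (edgeR adjusted p = 0.197, 0.477 and 0.304).

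Summed over its sgRNAs, no member passed in ITPK1-WT cells, while 39% of the 77 gene features did (16 higher and 14 lower, or 34 higher and 2 lower after non-targeting scaling). Grb2 came nearest, with a log2 fold change of 0.23 (SE 0.0932, edgeR adjusted p = 0.0538), which passed when scaled to the non-targeting sgRNAs (0.28, edgeR adjusted p = 0.0136), in DESeq2 (adjusted p = 0.0278) and with robust dispersion (adjusted p = 0.0198). Leaving out 1 mouse gave 0.16 to 0.29 with edgeR adjusted p from 0.0242 to 0.216, and the value passed in 3 of these 8 fits, without mouse 3, 4 or 6. With the sample series as a covariate it was 0.10, and without sg-3 it was 0.38. Averaged over sgRNAs on the log scale, the Grb2 level was 5.24%, 5.25%, 5.59% and 6.32% in IgA mice 5 to 8, against 4.06%, 3.81%, 4.81% and 4.85% in vehicle mice 1 to 4. These arms did not overlap, and the difference of 0.36 had an exact two-sided permutation p of 0.0286, the smallest that 4 mice against 4 can give, or 0.128 after Benjamini-Hochberg adjustment over 76 genes. By that exact permutation test 0% of genes passed after adjustment in either background. An unadjusted permutation p of 0.0286, given only by arms without overlap, was found for 9 of 76 genes in ITPK1-KO cells and 17 in ITPK1-WT cells. This smallest p passes adjustment over 76 genes only when far more genes share it. No gene could therefore pass alone, and the 0% decides nothing about a single gene. The summed log2 fold changes of Txnl4b and Eif5b were 0.05 and -0.08 (edgeR adjusted p = 0.688 and 0.403).

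In ITPK1-KO cells no member sgRNA passed edgeR's quasi-likelihood test between IgA and vehicle mice, while 10.4% of 251 sgRNAs did (14 higher and 12 lower, or 17 higher and 8 lower after non-targeting scaling). Leaving out 1 mouse gained 2 calls, Grb2 sg-3 without mouse 1 (0.35, edgeR adjusted p = 0.0429) and Eif5b sg-2 without mouse 5 (-0.31, edgeR adjusted p = 0.0469). With all mice 2 of the 9 had an unadjusted p under 0.05 in edgeR, against 58 of all 251 sgRNAs. DESeq2's own filter on low counts left all 9 without an adjusted p. The lowest adjusted p was that of Eif5b sg-2, which stood at 7.31%, 6.98%, 6.95% and 6.22% in IgA mice 5 to 8, against 8.27%, 8.96%, 8.24% and 7.96% in vehicle mice 1 to 4. It was the only member whose arms did not overlap in these cells, against 11.9% of all sgRNAs, with a log2 fold change of -0.28 (SE 0.104, edgeR adjusted p = 0.0621). Eif5b sg-1 and sg-3 had -0.07 and -0.24.

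The 3 Grb2 sgRNAs had log2 fold changes of 0.23, 0.20 and 0.22 in ITPK1-KO cells, but single mice moved each of them: leaving out 1 mouse gave 0.094 to 0.36 for sg-1, 0.097 to 0.31 for sg-2 and 0.15 to 0.35 for sg-3. Their arms overlapped, as Grb2 sg-3 shows, with 6.3%, 7.0%, 7.18% and 8.51% in IgA mice 5 to 8 against 8.12%, 5.5%, 5.95% and 5.46% in vehicle mice 1 to 4 (edgeR adjusted p = 0.213). Grb2 sg-1 had only 25 to 28 reads in the IgA libraries and 9 to 28 reads in the vehicle libraries, with a standard error of 0.369. With the sample series as a covariate, sg-2 and sg-3 had -0.02 and 0.02. The Txnl4b sgRNAs had -0.04, -0.34 and 0.10 for sg-1, sg-2 and sg-3. The vehicle library of mouse 3, the smallest at 317564 reads, held 10 reads of Txnl4b sg-3 (0.571%, against 1.33% to 2.02% in the other vehicle mice), and without that mouse the value was -0.07.

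On summed counts 14.3% of 77 features passed in ITPK1-KO cells (6 higher and 5 lower, or 12 higher and 3 lower after non-targeting scaling). No member was among them, and DESeq2 again gave the 3 no adjusted p. In edgeR 21 of all 77 features had an unadjusted p under 0.05, and of the members 1. That one was Eif5b, which had a log2 fold change of -0.15 (SE 0.0585, edgeR adjusted p = 0.119), or -0.27 without sg-1. Grb2 had 0.21 (SE 0.109, edgeR adjusted p = 0.199) and Txnl4b -0.05 (edgeR adjusted p = 0.836). The Eif5b level was 7.95%, 8.13%, 7.44% and 7.5% in IgA mice 5 to 8, against 8.98%, 9.44%, 9.18% and 8.29% in vehicle mice 1 to 4, so that all 4 IgA mice lay below all 4 vehicle mice. Arms without overlap were not particular to Eif5b, as 9 of 76 genes had them in these cells. The difference of -0.21 on the log2 scale had an exact two-sided permutation p of 0.0286, or 0.241 adjusted over 76 genes. That p is the smallest the test can give, and no gene could pass adjustment alone.

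**Figure D4:**
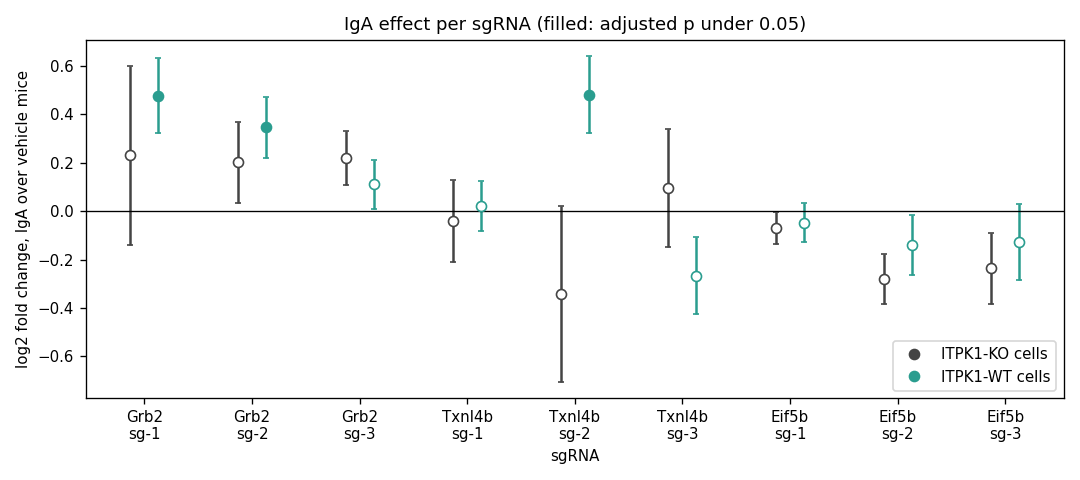
Log2 fold change of IgA over vehicle mice for each member sgRNA in ITPK1-KO and ITPK1-WT cells, with bars for 1 standard error from edgeR (4 mice against 4 in each background) and filled points for an adjusted p under 0.05. Only Grb2 sg-1, Grb2 sg-2 and Txnl4b sg-2 in ITPK1-WT cells are filled, at 0.48, 0.35 and 0.48.

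The IgA effect of no member was shown to differ between backgrounds. The interaction contrast (effect in ITPK1-KO cells minus effect in ITPK1-WT cells) was past the threshold for 3.97% of the 252 sgRNAs (4 higher and 6 lower, or 2 higher and 7 lower after non-targeting scaling) and for 6.49% of the 77 gene features (2 higher and 3 lower, or 1 higher and 4 lower). None of the 9 member sgRNAs and none of the 3 genes was among them in edgeR or in DESeq2. In edgeR 29 of all sgRNAs and 9 of all gene features had an unadjusted p under 0.05, and of the members 0 genes and 1 sgRNA. That sgRNA was Txnl4b sg-2, with a difference of -0.83 (SE 0.352, 95% interval -1.52 to -0.14 before adjustment, edgeR adjusted p = 0.244). Grb2 sg-1 and sg-2, both called in ITPK1-WT cells and not in ITPK1-KO cells, had differences of -0.25 (95% interval -0.94 to 0.43) and -0.15 (-0.56 to 0.26). The intervals were wide enough to hold the whole effect seen in ITPK1-WT cells, so a difference of that size was not detectable here. By contrast the Itpk1 sgRNAs summed to an IgA effect of -0.03 in ITPK1-KO cells and 0.45 in ITPK1-WT cells, with a difference of -0.48 (edgeR adjusted p = 3.74e-10).

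Levels after 16 hours in the mice were also set against the pools before injection, and among the members Txnl4b in ITPK1-KO cells lay furthest below its start. With 1 library per background from before injection these changes have no test, and all mice of a background share that start. In ITPK1-KO cells only 8 of 76 genes in IgA mice and 2 in vehicle mice averaged above their start. The Txnl4b level in ITPK1-KO cells lay below its start in all 8 mice, by -0.47 ± 0.198 (log2, mean and SD) in IgA mice and -0.43 ± 0.162 in vehicle mice. Both were the lowest of the 76 genes in these cells, whose medians were -0.06 in IgA mice and -0.08 in vehicle mice. The highest were those of Ipmk, the scarcest gene at the start, at 0.26 in IgA mice and 0.46 in vehicle mice. The Txnl4b start rested on 105, 23 and 64 reads of sg-1, sg-2 and sg-3. In vehicle mice Txnl4b sg-3 had the largest change (-0.88 ± 0.786), and sg-2 (-0.10 ± 0.529) lay above its start in 2 of 4. In ITPK1-WT cells the change of Txnl4b was -0.11 ± 0.149 in IgA mice and -0.20 ± 0.0694 in vehicle mice, ranks 5 and 4 from the lowest, and other genes there reached -0.58 in IgA mice and -0.52 in vehicle mice. Daxx too lay below its start in all 8 mice in ITPK1-KO cells, by -0.27 ± 0.0483 in IgA mice and -0.35 ± 0.0513 in vehicle mice.

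Grb2 had changed by 0.10 ± 0.2 in IgA mice and -0.13 ± 0.174 in vehicle mice in ITPK1-KO cells, both spreads crossing 0. In ITPK1-WT cells it had changed by 0.21 ± 0.127 in IgA mice, above the start in all 4, and by -0.14 ± 0.175 in vehicle mice. Of 76 genes in ITPK1-WT cells, 57 averaged above their start in IgA mice and 41 in vehicle mice. Grb2 ranked 74 and 9 from the lowest in ITPK1-KO cells of IgA and vehicle mice, and 72 and 7 in ITPK1-WT cells. Eif5b had changed by -0.26 ± 0.0623 in IgA mice and -0.05 ± 0.0806 in vehicle mice in ITPK1-KO cells, and by -0.26 ± 0.126 in IgA mice and -0.18 ± 0.104 in vehicle mice in ITPK1-WT cells. These were ranks 6 and 58 from the lowest of 76 genes in ITPK1-KO cells and ranks 3 and 6 in ITPK1-WT cells.

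The members' counts limit what could be seen. From the read share and the number of sorted cells, 38 to 2458 cells stood behind a member sgRNA in a recovered library, the fewest for Txnl4b sg-2 in ITPK1-KO cells of IgA mice (38 to 67 cells). The SD between 4 mice exceeded the SD that counting of reads and cells alone would give in 22 of 36 combinations of sgRNA and group, with a median ratio of 1.24 (0.386 to 2.5). For Grb2 sg-1 in ITPK1-WT cells of IgA mice the SD of 0.0775 was below the counting SD of 0.201, so these 4 libraries lay closer together than counting error gives on average. These figures cover counting error only, because amplified reads without molecular identifiers are not independent molecules.

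The authors' deposited table, made with MAGeCK, listed no member sgRNA past an FDR of 0.05. The lowest member FDR in the authors' deposited table was 0.595 in ITPK1-KO cells, for Grb2 sg-3, and 0.998 in ITPK1-WT cells. Over all sgRNAs, the authors' deposited table held an FDR under 0.05 for 12 in ITPK1-KO cells and for 0 in ITPK1-WT cells. The log2 fold changes in the authors' deposited table for Grb2 sg-1, sg-2 and sg-3 in ITPK1-WT cells were 0.57, 0.34 and 0.14.

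The genes whose levels moved most like each member across recovered libraries were named by the mean of a pair of Pearson correlations, over 8 ITPK1-KO and 8 ITPK1-WT libraries, as a description in which the libraries' depth and arms are shared. For Grb2 these were Ltbr (mean r 0.785), Kcnip1 (0.763) and Hspbap1 (0.752), and for Eif5b Commd4 (0.632), Ripk1 (0.527) and Rab25 (0.504). For Txnl4b they were 9430015G10Rik (0.619), S100a7a (0.533) and Casp8 (0.527). The members were not each other's nearest: Txnl4b ranked 35 for Grb2 and Grb2 ranked 13 for Txnl4b (0.323), with r of 0.132 in ITPK1-KO and 0.514 in ITPK1-WT libraries. Eif5b ranked 74 for Grb2, with r of -0.777 in ITPK1-KO and -0.424 in ITPK1-WT libraries, and 75 for Txnl4b, with r of -0.0596 and -0.81 in the same libraries.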

How the data were processed

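The authors deposited raw read counts per sgRNA for all libraries. Per the series' design text, only reads that matched the reference library without mismatch were counted, and sgRNAs were scored with MAGeCK RRA 0.5.6. The aligner is not given in the sources used here. Besides counts, the authors' deposited tables hold log2 fold changes, p-values and FDR per sgRNA, used only where named; 4 columns of joined counts were not used. Samples were matched to count columns through the deposited legend.

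The members and lists were chosen with earlier results of these data known. Counts were tested with edgeR 4.0.16 (quasi-likelihood, TMM, mean of at least 10 reads, Benjamini-Hochberg over all features, threshold 0.05; R 4.3.3, limma 3.58.1), per sgRNA and summed per gene, and DESeq2 1.42.0 was an alternative. The code was tested on simulated data. Levels used a pseudocount of 0.5, and gene levels an exact permutation test over 70 splits. All 9 member sgRNAs passed the filter and are named with Itpk1, Ipmk, Daxx, the 3 genes above the members at the start and the 3 most alike. No pair of same-group libraries agreed within sampling noise (chi-square per degree of freedom 2.24 to 5.62 over 24 pairs). Same-numbered libraries come from the same mouse and are paired by design; their deviations from group means correlated by -0.0841 to 0.259 over 238 sgRNAs. Alternatives changed normalization, filter, test, dispersion, pairing, series covariate, reference, pseudocount and replicates.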

Additional observations from a re-analysis of the deposited data

Results flagged for a closer look

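The Eif5b level in the ITPK1-WT cells of IgA mouse 7 stood apart from the other 3 IgA mice, at -4.22 on the log2 scale against -3.99 to -3.95, that is 5.37% of the non-targeting median. It was 1 of 48 groups of 4 libraries checked for such a gap, and chance alone flags about 1 in 20. Txnl4b sg-2 in IgA mice lay below its level before injection in all 4 ITPK1-KO libraries (change -0.43 ± 0.342) and above it in all 4 ITPK1-WT libraries (change 0.32 ± 0.24), a difference of -0.748. Each of the 9 member sgRNAs and 3 genes was checked for such a split in both arms, and only this one showed it. How many of the other sgRNAs in the library show such a split was not counted. The difference of changes from the start was not tested, and the interaction of IgA and background for Txnl4b sg-2 did not pass (edgeR adjusted p = 0.244). The ITPK1-KO values rested on 18 to 30 reads in IgA mice and 23 reads before injection. In IgA mice 8 of 76 genes averaged above their start in ITPK1-KO cells, and 57 of 76 did in ITPK1-WT cells.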

How the results depend on the processing

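The background differences of all 9 sgRNAs and 3 genes kept their direction and call under every alternative that gave them an adjusted p. DESeq2's filter gave no adjusted p to any member between the arms in ITPK1-KO cells, and the stricter filter of 100 reads removed the scarcest member sgRNAs. With the mouse as a replicate block, 116 sgRNAs and 45 genes differed between backgrounds (114 and 44 without it), the interaction called 10 sgRNAs and 5 genes as before, and no member's call changed. Counts over all features depended on the series covariate, which lowered the sgRNAs called in ITPK1-KO cells to 15 (26 without it) and the genes to 5 (11), and those in ITPK1-WT cells to 17 (70) and 9 (30). The joint fit of all 16 libraries called 7 genes in ITPK1-KO cells. Leaving out 1 mouse gave 7 to 15 genes in ITPK1-KO cells (7 without mouse 8), 45 to 94 sgRNAs in ITPK1-WT cells (45 without mouse 7), 15 to 33 genes there (15 without mouse 7, 19 without mouse 8), and 8 to 17 sgRNAs for the interaction (17 without mouse 6, 10 with all).

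Member values that changed sign had not passed the threshold, and the cause was not tested. With the series covariate these were, in ITPK1-KO cells, Grb2 sg-2 (-0.019) and Txnl4b sg-3 (-0.12), and in ITPK1-WT cells Eif5b sg-1 (0.061), Eif5b sg-3 (0.28), Grb2 sg-3 (-0.13), Txnl4b sg-1 (-0.011) and summed Txnl4b (-0.028). Scaling to non-targeting sgRNAs gave 0.0033 for Eif5b sg-1 in ITPK1-WT cells. Leaving out 1 mouse gave -0.15 to 0.033 for Txnl4b sg-1, -0.072 to 0.28 for Txnl4b sg-3 and -0.12 to 0.027 for summed Txnl4b in ITPK1-KO cells, and -0.26 to 0.017 for Eif5b sg-3 and -0.035 to 0.064 for Txnl4b sg-1 in ITPK1-WT cells. For the interaction the ranges were -0.11 to 0.023 (Eif5b sg-1), -0.29 to 0.035 (Eif5b sg-3), -0.015 to 0.24 (Grb2 sg-3), -0.19 to 0.027 (Txnl4b sg-1) and -0.10 to 0.070 (summed Grb2). Leaving out 1 sgRNA also turned summed values: without sg-2, Txnl4b was 0.00047 in ITPK1-KO cells (-0.05 with all), -0.044 in ITPK1-WT cells (0.05) and 0.043 for the interaction (-0.10), and the Grb2 interaction was 0.040 without sg-2 and 0.015 without sg-1 (-0.02).

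Levels depend by construction on the reference. Against the median of targeting sgRNAs they were, in ITPK1-KO cells of IgA mice, vehicle mice and before injection, -4.76, -4.98 and -4.95 for Grb2, -5.65, -5.60 and -5.27 for Txnl4b, and -3.17, -2.94 and -2.99 for Eif5b. In ITPK1-WT cells they were -3.66, -3.97 and -3.84 for Grb2, -4.30, -4.35 and -4.15 for Txnl4b, and -3.53, -3.41 and -3.24 for Eif5b. The change of Eif5b in ITPK1-KO cells was then -0.17 in IgA mice and 0.051 in vehicle mice. A pseudocount of 5 reads moved Txnl4b in ITPK1-KO cells of vehicle mice to -5.95.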
